A study of Arabidopsis thaliana with 44 samples.

Results

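The 10 genes described here encode nitrate transporters of Arabidopsis thaliana: NRT1.1 (AT1G12110), NRT1.2 (AT1G69850), NRT1.5 (AT1G32450), NRT1.6 (AT1G27080), NRT1.7 (AT1G69870), NRT1.8 (AT4G21680), NRT2.1 (AT1G08090), NRT2.5 (AT1G12940), NRT2.7 (AT5G14570) and CLCA (AT5G40890). They were taken by name and matched by locus, and all 10 were found among the 27827 probe sets of the array. By their locus identifiers, 7 lie on chromosome 1, while NRT1.8 lies on chromosome 4 and both NRT2.7 and CLCA lie on chromosome 5.

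Nitrate enters plant cells through carriers of the NRT1 (NPF) and NRT2 families, and CLC exchangers move it into the vacuole. In seeds, nitrate delivered by the mother plant is stored in the embryo and is known to promote germination and to reduce dormancy. Among the genes followed here, NRT1.6 is known for delivery of nitrate to developing seeds and NRT2.7 for loading nitrate into seed vacuoles.

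RNA of freshly harvested dry seed was hybridised to 44 arrays, each made from the seed of a bulk of 4 plants. The seed came from 3 near isogenic lines (NILs), which carry the dormancy loci DOG6, DOG3 and DOG1 (DELAY OF GERMINATION) and are called NIL DOG6, NIL DOG3 and NIL DOG1. Mother plants grew at 15°C, in low nitrate (N0), at 20°C, in low light (LL) or in standard light (SL), where 20°C is the control of both 15°C and N0, and SL is the control of LL. The labels call the molecule total RNA, although the extraction text also describes polysome RNA. All groups are NIL seed, so that no arrays of a line without a dormancy locus were analysed here. Each genotype is a single line, and differences between the lines include every segment in which they differ. Of the 15 groups of line and condition, 14 had 3 arrays and NIL DOG3 in N0 had 2. The replicates are labelled as biological, in a randomized complete block design. The deposited values are log2 signals with array medians between 4.22 and 4.39, and arrays of the same group correlated with r of 0.987 to 0.994 across probe sets. The 7 seed storage and maturation markers checked (among them CRA1, CRC and EM6) lay at or above percentile 99.7 of all probe sets, and 4 of 6 leaf markers lay below the median. Dry seed holds embryo, endosperm and seed coat, so a smaller share of cells of a type and less RNA per cell cannot be told apart.

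The mean signal was above the median of all probe sets (4.28) for 5 of the 10 genes. These were NRT1.8 (percentile 99.1), NRT2.7 (percentile 98), NRT1.7 (percentile 90.2), NRT2.5 (percentile 67.4) and NRT1.1 (percentile 59.7). The other 5, NRT1.6, NRT1.2, CLCA, NRT2.1 and NRT1.5, lay between percentiles 36.5 and 10.7, where a probe set's signal may be mostly background. A signal also depends on the probes, so these percentiles do not rank the transcripts.

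**Figure D1:**
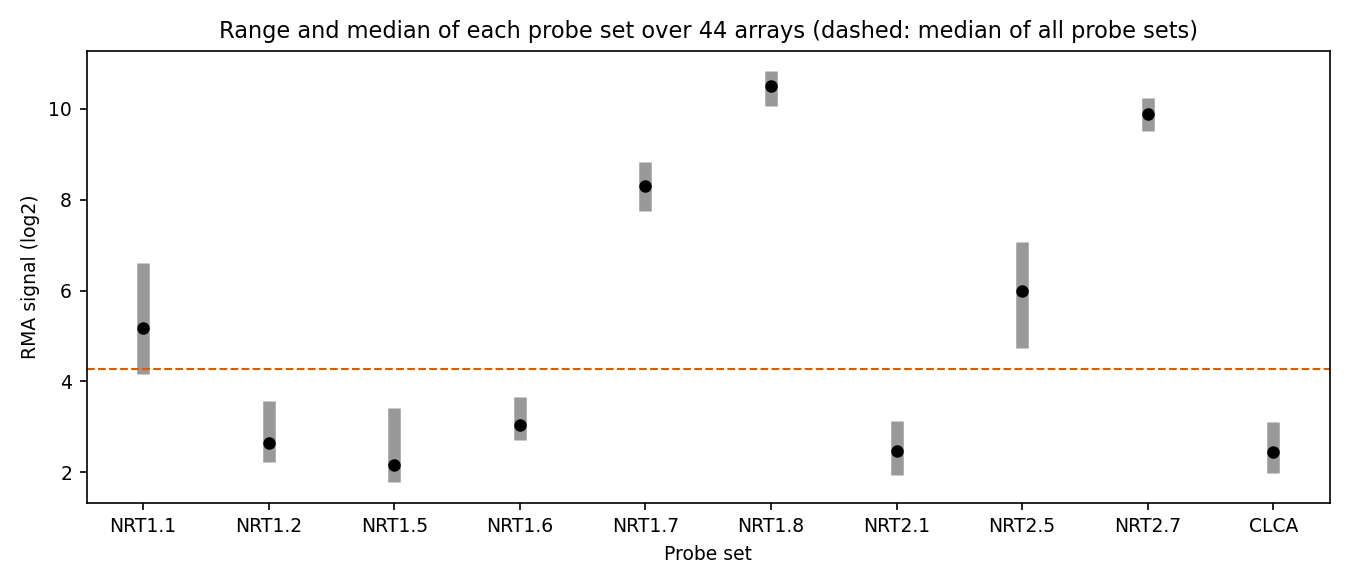
Log2 RMA signal of the 10 probe sets. Each bar spans the lowest to the highest of 44 arrays, the point is the median and the dashed line is the median of all probe sets (4.28). NRT2.5 and NRT1.1 have the longest bars among the 5 genes whose mean is above that line. Heights of different probe sets are not comparable amounts of transcript.

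Seed that matured at 15°C had more NRT1.1, NRT2.5, NRT1.8 and CLCA signal than seed that matured at 20°C. Averaged over the lines, 4 of the 10 genes were higher and 0 were lower at an adjusted p under 0.05 (limma, adjusted over all probe sets; 4 had an unadjusted p under 0.05). Of all probe sets 25.3% were called in this comparison and 12.5% were called higher. Such shares, here and below, are for the adjusted threshold. The share of all probe sets at an unadjusted p under 0.05 was not counted. The median difference was 0.052 on the log2 scale for the 10 genes and 0.0048 for all probe sets.

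NRT1.1 is the dual-affinity nitrate carrier of the root, which also senses nitrate. Its signal at 15°C had a lowest value of 5.24, a median of 5.93 and a highest value of 6.18 over 9 arrays, against 4.63, 4.90 and 5.495 over 9 arrays at 20°C. The groups overlapped between the lowest 15°C and the highest 20°C arrays, while within every line all 15°C arrays were above all 20°C arrays. The difference was 0.82 ± 0.12 (log2 ± SE), or 1.76-fold, with an adjusted p of 2.2e-06 by limma.

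NRT2.5 encodes a high-affinity carrier known for nitrate uptake in starved plants. It had 6.00, 6.59 and 6.74 as lowest, median and highest log2 signal at 15°C, against 5.47, 5.93 and 6.08 at 20°C. The ranges met only at their ends, and again did not overlap within any line. The difference was 0.60 ± 0.10, or 1.52-fold (limma adjusted p = 6.8e-06).

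NRT1.8 removes nitrate from the xylem sap. Its log2 signal was 10.57, 10.67 and 10.82 (lowest, median and highest) at 15°C and 10.34, 10.42 and 10.5 at 20°C. It was the only one of the 10 genes for which every 15°C array was above every 20°C array. The share of all probe sets separated in this way was not counted, here or for any other separation of arrays described, within lines included. The difference was small, 0.27 ± 0.04 or 1.21-fold (limma adjusted p = 1.4e-05), on a spread between arrays of 0.09 (SD, n = 9) at 15°C and 0.05 (SD, n = 9) at 20°C.

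CLCA exchanges nitrate for protons at the vacuole membrane. Its probe set was dim, with 2.395, 2.64 and 3.12 as lowest, median and highest log2 signal at 15°C and 1.997, 2.34 and 2.68 at 20°C. The groups overlapped, in each line as well. The difference was 0.32 ± 0.09, or 1.25-fold (limma adjusted p = 0.0061). The remaining 6 genes differed by -0.15 to 0.07 between 15°C and 20°C, with adjusted p-values of 0.354 to 0.981. Leaving out any of the 44 arrays kept all 4 calls. Beside these values, 2 of 8 pollen markers were lower at 15°C (median difference -0.62), as were 1 of 7 seed markers (SESA1, by limma -0.39 ± 0.07) and 1 of 6 leaf markers (PSAD-1, -0.48 ± 0.14). The mean signal of the pollen markers ranged over 5.53 to 6.48 at 15°C and 5.83 to 7.07 at 20°C. The part of these markers in the differences was not tested.

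**Figure D2:**
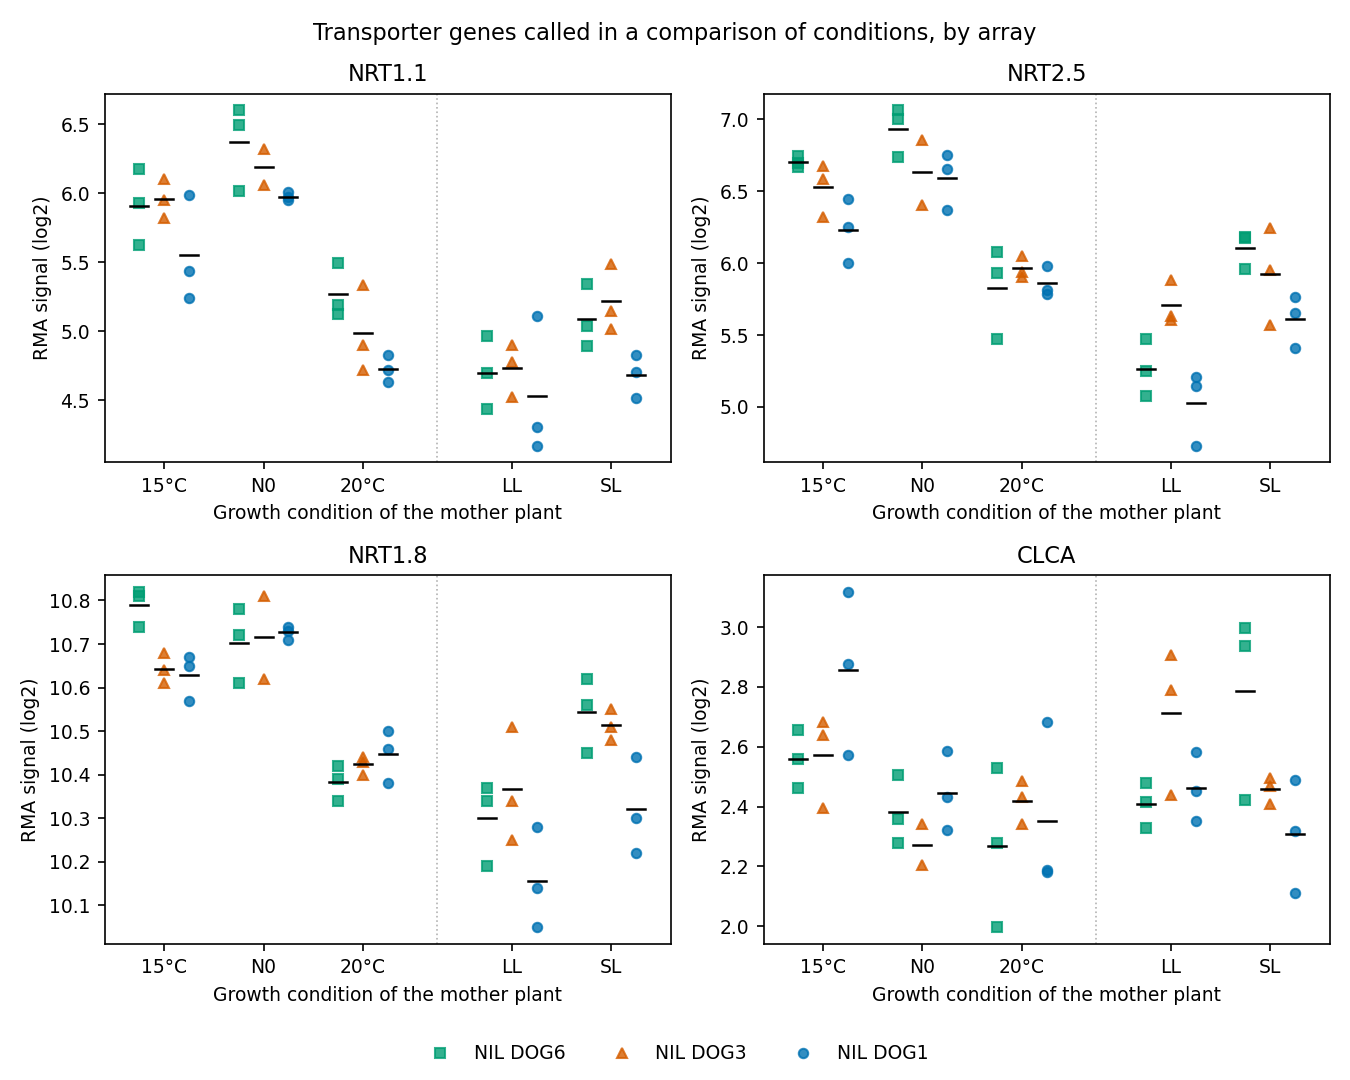
Log2 RMA signal of NRT1.1, NRT2.5, NRT1.8 and CLCA, the genes called in a comparison of conditions, for each array (point), with the group mean (bar), by growth condition and line. For NRT1.1, NRT2.5 and NRT1.8 all N0 points lie above all 20°C points, a separation not counted over all probe sets. CLCA points overlap between all conditions.

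Low nitrate supply of the mother plant went with higher signal of NRT1.1, NRT2.5 and NRT1.8. In N0 against 20°C, 3 of the 10 genes were higher and 0 were lower (3 had an unadjusted p under 0.05), where 11.9% of all probe sets were called and 5.86% were called higher. The median difference was 0.063 for the 10 genes and 0.0082 for all probe sets (log2). The 15°C and N0 comparisons share the 20°C arrays, so similar values in both are not independent.

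NRT1.1 had 5.95, 6.04 and 6.60 as lowest, median and highest log2 signal over the 8 N0 arrays, against 4.63, 4.90 and 5.495 over the 9 arrays at 20°C. Every N0 array was above every 20°C array. The difference was 1.19 ± 0.12, or 2.28-fold (limma adjusted p = 1.2e-08), the largest among the 10 genes in any of the 3 comparisons with a control condition. NRT2.5 had 6.37, 6.75 and 7.06 in N0, against 5.47, 5.93 and 6.08 at 20°C. These groups did not overlap either, and the difference was 0.84 ± 0.10, or 1.79-fold (limma adjusted p = 1.2e-07). NRT1.8 had 10.61, 10.73 and 10.81 in N0, against 10.34, 10.42 and 10.5 at 20°C. All N0 arrays were again higher, by 0.30 ± 0.05 on average, or 1.23-fold (limma adjusted p = 1.7e-05). How many of all probe sets had N0 and 20°C arrays without overlap was not counted.

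CLCA, called at 15°C, was at 2.21, 2.35 and 2.59 (lowest, median and highest) in N0, inside its range of 1.997 to 2.68 at 20°C. Its difference was 0.02 ± 0.09 with an adjusted p of 0.940. The seed vacuole carrier NRT2.7 had 9.52, 9.84 and 10.1 in N0, against 9.66, 9.88 and 10.04 at 20°C, a difference of -0.07 ± 0.06 (limma adjusted p = 0.577). NRT1.6, the carrier for nitrate delivery to seeds, differed by -0.0014 ± 0.11 (limma adjusted p = 0.997) on a dim probe set. The 7 genes without a call had differences of -0.10 to 0.13. Leaving out any of the 44 arrays kept all 3 calls. In this comparison 0 of 8 pollen markers were called (limma), while 2 of 6 leaf markers were lower in N0, RBCS1A (-0.62 ± 0.10) and PSAD-1 (-0.45 ± 0.14), and 1 of 7 seed markers, SESA1 (-0.58 ± 0.07). Their part in the differences was not tested.

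**Figure D3:**
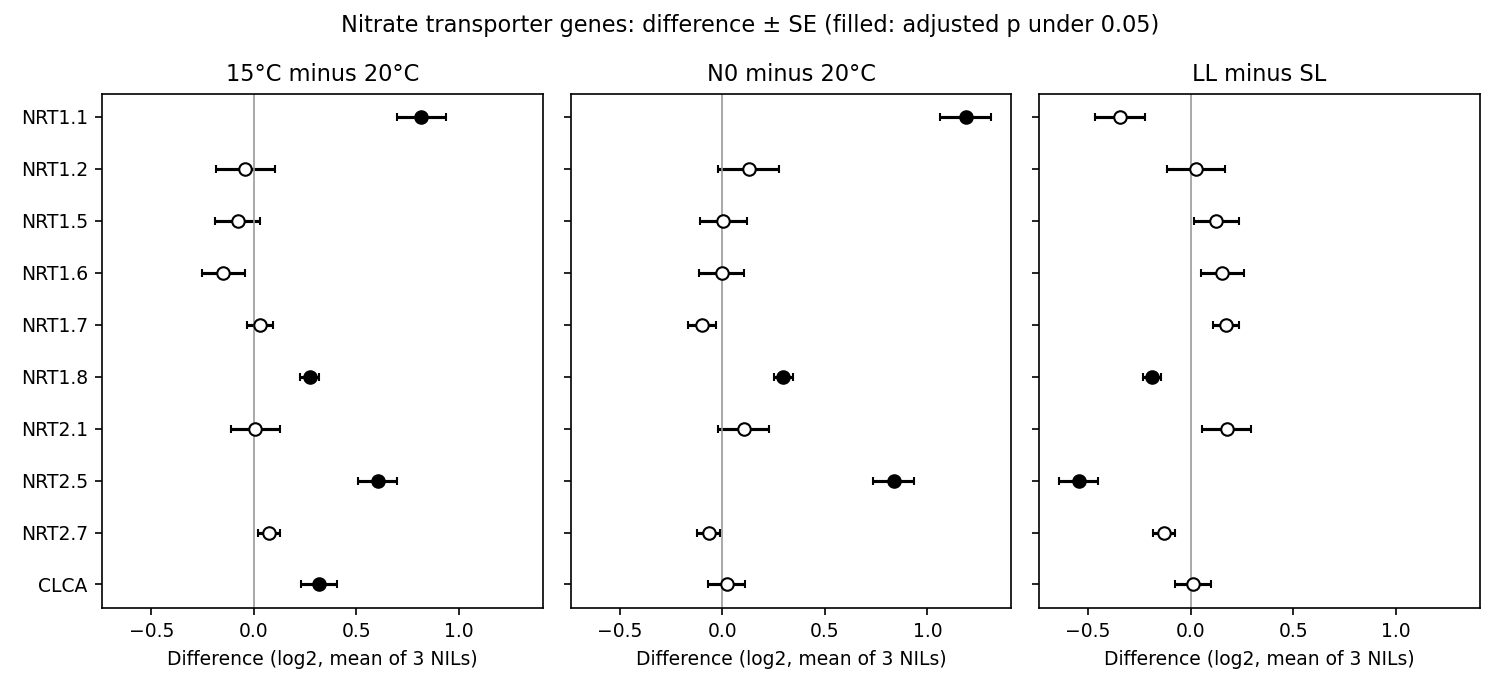
Log2 difference (mean of 3 lines, ± SE) of each of the 10 genes for 15°C minus 20°C, N0 minus 20°C and LL minus SL. Filled points had an adjusted p under 0.05, and the vertical line marks no difference. NRT1.8 and NRT2.5 are filled on the right of the line for 15°C and N0 and on its left for LL.

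Set directly against 15°C, N0 seed had more NRT1.1 and less CLCA signal, and both calls were unstable. In N0 minus 15°C, a contrast without the 20°C arrays, 2 of the 10 genes were called, where 12.9% of all probe sets were. The difference of NRT1.1 was 0.37 ± 0.12 (limma adjusted p = 0.044), and its ranges of 5.95 to 6.60 in N0 and 5.24 to 6.18 at 15°C overlapped. CLCA differed by -0.30 ± 0.09 (limma adjusted p = 0.027), and its ranges of 2.21 to 2.59 in N0 and 2.395 to 3.12 at 15°C overlapped. The NRT1.1 call was lost on leaving out any of 13 arrays (adjusted p up to 0.141, without replicate 3 of NIL DOG3 in N0). These were N0 replicates 2 and 3 of NIL DOG6, 2 and 3 of NIL DOG3 and 1 to 3 of NIL DOG1, and 15°C replicates 1 and 3, 2 and 3, and 2 and 3 in the same order of lines. The CLCA call was lost on leaving out any of 7 arrays (adjusted p up to 0.0953, without replicate 2 of NIL DOG3 in N0). These were N0 replicates 1 of NIL DOG6, 2 of NIL DOG3 and 2 of NIL DOG1, and 15°C replicates 2 of NIL DOG6, 2 and 3 of NIL DOG3 and 3 of NIL DOG1. NRT2.5 differed by 0.23 ± 0.10 (limma adjusted p = 0.132) and NRT1.8 by 0.03 ± 0.05 (adjusted p = 0.822). Of the 8 pollen markers 1 was higher in N0 than at 15°C (PPME1, 0.51 ± 0.14, with a median difference of 0.73 over the 8), and of the 6 leaf markers 1 was lower (RBCS1A, -0.45 ± 0.10). Their part in the differences was not tested.

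Seed from low light had less NRT2.5 and NRT1.8 signal than seed from standard light. In LL against SL, 0 of the 10 genes were higher and 2 were lower (5 had an unadjusted p under 0.05). At the adjusted threshold, 6.36% of all probe sets were called and 3.63% were called lower. The median difference was 0.018 for the 10 genes and 0.014 for all probe sets (log2).

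NRT2.5 had 4.73, 5.25 and 5.88 as lowest, median and highest log2 signal in LL and 5.41, 5.95 and 6.25 in SL. The groups overlapped, with the 3 NIL DOG3 arrays highest in LL at 5.61 to 5.88, while in NIL DOG6 and NIL DOG1 all LL arrays were below all SL arrays. The fall was 0.55 ± 0.10 on the log2 scale, or 1.46-fold (limma adjusted p = 0.00042). NRT1.8 had 10.05, 10.28 and 10.51 in LL, against 10.22, 10.48 and 10.62 in SL. These groups overlapped, and NRT1.8 fell by 0.19 ± 0.04, or 1.14-fold (limma adjusted p = 0.0083). When only the LL and SL arrays entered the fit, the adjusted p of NRT1.8 was 0.0942.

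NRT1.1 had 4.17, 4.70 and 5.11 in LL and 4.52, 5.02 and 5.49 in SL, a difference of -0.34 ± 0.12 that missed the threshold (limma adjusted p = 0.084). The highest LL array was replicate 3 of NIL DOG1, without which the difference was -0.44 and its adjusted p 0.0111. NRT1.7, which loads nitrate into the phloem of older leaves, had 8.31, 8.55 and 8.84 in LL and 7.98, 8.33 and 8.71 in SL. Its difference of 0.17 ± 0.06 and that of NRT2.7, -0.13 ± 0.05, were not called (limma adjusted p = 0.108 and 0.163).

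Pollen markers, genes with known expression in pollen, moved with this comparison. Of 8 markers, 7 were lower in LL (median difference -1.72), and their mean signal ranged over 4.70 to 5.96 in LL and 5.74 to 8.31 in SL. No marker had a mean below the median of all probe sets. The 3 SL arrays numbered 2 had the highest values, 8.31 in NIL DOG1, 8.03 in NIL DOG3 and 7.61 in NIL DOG6. Without these 3 arrays the differences were -0.47 for NRT2.5 (limma adjusted p = 0.00937) and -0.19 for NRT1.8 (adjusted p = 0.032). The SL arrays left had pollen marker means of 5.74 to 7.355, against 4.70 to 5.96 in LL, so the markers still differed. The part of the pollen markers in the differences was not tested.

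The order of the conditions was the same for NRT1.1, NRT2.5 and NRT1.8 at the ends, with N0 highest and LL lowest. NRT1.1 averaged 6.18 ± 0.26 in N0 (SD, n = 8), 5.81 ± 0.31 at 15°C, 4.997 ± 0.30 in SL, 4.99 ± 0.30 at 20°C and 4.65 ± 0.32 in LL (SD, n = 9 each). NRT2.5 averaged 6.73 ± 0.25 in N0, 6.49 ± 0.25 at 15°C, 5.88 ± 0.18 at 20°C, 5.88 ± 0.30 in SL and 5.33 ± 0.35 in LL. The neighbours SL and 20°C, which are no pair of the design, were within the spread of their arrays for both genes.

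NRT1.8 averaged 10.72 ± 0.07 in N0, 10.69 ± 0.09 at 15°C, 10.46 ± 0.13 in SL, 10.42 ± 0.05 at 20°C and 10.27 ± 0.14 in LL. Its N0 and 15°C levels, and its SL and 20°C levels, lay within the spread of the arrays. NRT1.7 had its highest mean in LL (8.54 ± 0.19) and its lowest in N0 (8.15 ± 0.18), with 8.28 ± 0.14 at 15°C, 8.25 ± 0.15 at 20°C and 8.37 ± 0.20 in SL between them. NRT2.7 kept between 9.84 ± 0.16 in N0 and 9.98 ± 0.14 in SL, a range close to the SD of its arrays.

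Among the 5 dim genes, NRT1.2, a low-affinity root carrier that also imports abscisic acid, had condition means between 2.63 and 2.78. NRT1.5, which loads nitrate into the xylem, had means between 2.11 and 2.39, and its highest array, replicate 3 of NIL DOG6 in LL at 3.41, stood apart from the other LL arrays (2.04 to 2.6). NRT1.6 had means between 2.94 and 3.19. NRT2.1, the main high-affinity carrier of the root, had means between 2.37 and 2.55, and CLCA between 2.35 and 2.66. The spread between arrays of a condition was 0.11 to 0.41 (SD) for these 5 genes, and apart from CLCA at 15°C none was called against a control condition in the mean over lines.

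Over the 15 group means, NRT1.8 and NRT2.5 had a Pearson r of 0.966, NRT1.1 and NRT2.5 an r of 0.937 and NRT1.1 and NRT1.8 an r of 0.91. NRT1.7 ran the other way, with an r of -0.72 to NRT2.5, -0.66 to NRT1.8 and -0.58 to NRT1.1. The storage gene NRT2.7 had an r of 0.11 to NRT2.5 and -0.05 to NRT1.1. The points share growth conditions, lines and normalization, so these are descriptions without a test.

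The probe sets most like each called gene over the 15 group means were found by the same measure. For NRT1.1 they were AT3G48240 (r = 0.979), AT3G59580, listed also as NLP9 (0.973), and AT3G14160 (0.969). For NRT2.5 they were ACR6 (r = 0.970), NRT1.8 (0.966) and FRO2 (0.965), and for NRT1.8 they were NRT2.5 (0.966), TPR3 (0.957) and AT3G49300 (0.946). CLCA had lower values, 0.860 with AT1G07590, 0.848 with AT3G07550 and 0.84 with ALP.

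**Figure D4:**
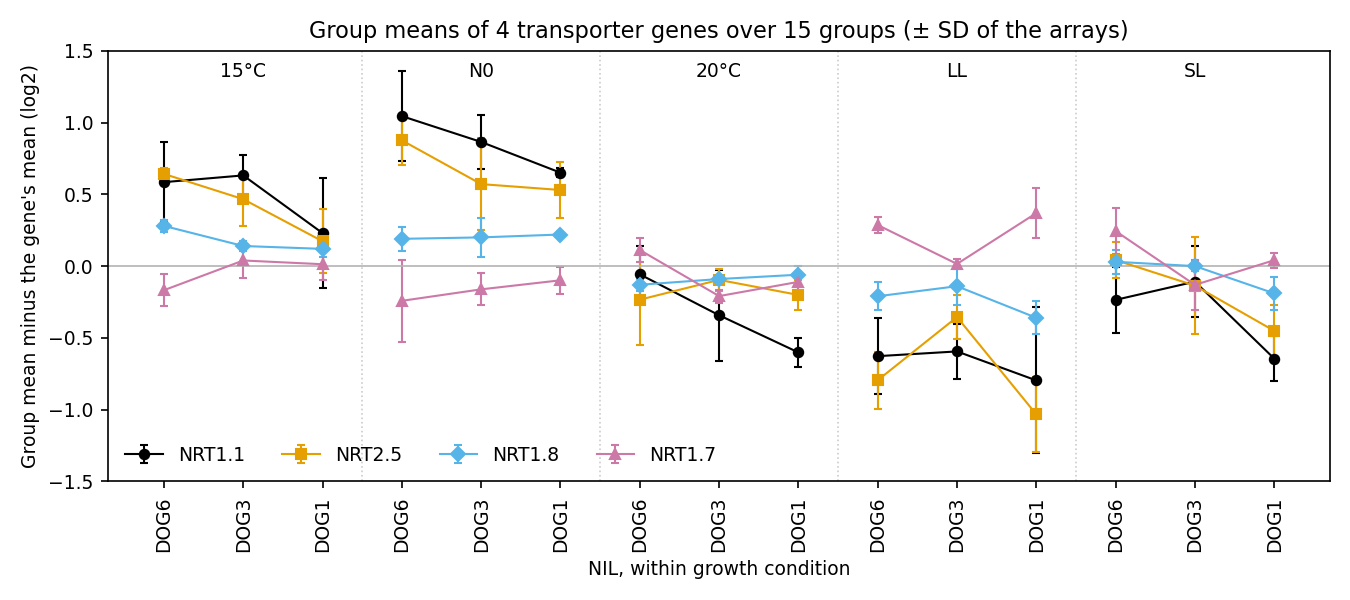
Mean of each of the 15 groups minus the gene's mean over groups (log2, ± SD of the arrays) for NRT1.1, NRT2.5, NRT1.8 and NRT1.7, by growth condition and line. NRT1.1, NRT2.5 and NRT1.8 are above 0 in all 15°C and N0 groups and below 0 in all LL groups, while NRT1.7 is above 0 in all LL groups and below 0 in all N0 groups.

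Within single lines NRT1.1 was higher in both conditions in every line. At 15°C against 20°C, 3 of the 10 genes were called in NIL DOG6 (11.7% of all probe sets), 2 in NIL DOG3 (9.19%) and 2 in NIL DOG1 (9.73%), all higher. NRT1.1 had 5.62, 6.18 and 5.93 at 15°C and 5.495, 5.13 and 5.19 at 20°C in NIL DOG6, a difference of 0.64 ± 0.21 (limma adjusted p = 0.038). In NIL DOG3 it had 6.10, 5.95 and 5.82 at 15°C and 4.90, 5.33 and 4.72 at 20°C, a difference of 0.97 ± 0.21 (limma adjusted p = 0.0018). In NIL DOG1 it had 5.99, 5.44 and 5.24 at 15°C and 4.72, 4.63 and 4.83 at 20°C, a difference of 0.83 ± 0.21 (limma adjusted p = 0.0072).

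NRT2.5 was called at 15°C in NIL DOG6 and NIL DOG3. It had 6.67, 6.74 and 6.70 at 15°C and 5.47, 5.93 and 6.08 at 20°C in NIL DOG6 (0.88 ± 0.16, limma adjusted p = 0.00034). In NIL DOG3 it had 6.59, 6.68 and 6.32 at 15°C and 5.90, 6.05 and 5.94 at 20°C (0.56 ± 0.16, limma adjusted p = 0.025). In NIL DOG1 the groups did not overlap either, but the difference of 0.37 ± 0.16 was not called (limma adjusted p = 0.175).

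NRT1.8 was called at 15°C in NIL DOG6, with 10.81, 10.82 and 10.74 at 15°C and 10.34, 10.39 and 10.42 at 20°C (0.41 ± 0.08, limma adjusted p = 0.0004). Its differences of 0.22 ± 0.08 in NIL DOG3 and 0.19 ± 0.08 in NIL DOG1 were not called (limma adjusted p = 0.070 and 0.148). The NIL DOG3 difference was called with trended and robust shrinkage (limma adjusted p = 0.022) and without dim probe sets (0.024). CLCA was called in NIL DOG1 (0.51 ± 0.15, limma adjusted p = 0.029), where it had 2.57, 2.88 and 3.12 at 15°C and 2.68, 2.18 and 2.19 at 20°C. Those groups overlapped through a single 20°C array.

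In N0 against 20°C, 3 genes were called in NIL DOG6 (4.57% of all probe sets), 2 in NIL DOG3 (2.96%) and 3 in NIL DOG1 (2.75%), all higher. NRT1.1 rose by 1.102 ± 0.21 in NIL DOG6, 1.21 ± 0.23 in NIL DOG3 and 1.25 ± 0.21 in NIL DOG1 (limma adjusted p = 0.00089, 0.0013 and 0.00024). For NRT2.5 the rise was 2.16-fold in NIL DOG6 (the highest), 1.59-fold (NIL DOG3) and 1.66-fold (NIL DOG1), with SEs of 0.16, 0.18 and 0.16 on the log2 scale (limma adjusted p = 4.6e-05, 0.037 and 0.0077). NRT1.8 was called in NIL DOG6 (0.32 ± 0.08, limma adjusted p = 0.011) and NIL DOG1 (0.28 ± 0.08, adjusted p = 0.040), and its 0.29 ± 0.09 in NIL DOG3 had an adjusted p of 0.064. The NIL DOG3 difference was called with trended and robust shrinkage (limma adjusted p = 0.0145) and without dim probe sets (0.0197).

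In LL against SL, 1 gene was called in NIL DOG6 (2.5% of all probe sets), 0 in NIL DOG3 (0.0144%) and 0 in NIL DOG1 (0.579%). Without adjustment, 4, 1 and 5 of the 10 genes had a p under 0.05 in these lines. The unadjusted counts have no share over all probe sets beside them, so they cannot be read for or against a response of the genes. The call was NRT2.5, with 5.07, 5.25 and 5.47 in LL and 5.96, 6.18 and 6.17 in SL, and it fell by 0.84 ± 0.16 (limma adjusted p = 0.0048). In NIL DOG1 NRT2.5 had 5.21, 5.15 and 4.73 in LL and 5.41, 5.65 and 5.77 in SL (-0.58 ± 0.16, limma adjusted p = 0.106). In NIL DOG3 it had 5.63, 5.61 and 5.88 in LL and 5.57, 6.25 and 5.95 in SL, and the groups overlapped (-0.22 ± 0.16, limma adjusted p = 0.781).

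Of these 16 calls within lines, 11 were lost when arrays of other groups were left out of the fit, which leaves fewer arrays to estimate the spread. The 5 kept there were NRT1.1 at 15°C in NIL DOG3 and in N0 in NIL DOG1, NRT2.5 at 15°C in NIL DOG6 and NIL DOG3, and NRT1.8 at 15°C in NIL DOG6. The 11 lost had limma adjusted p-values between 0.0557 (NRT1.1 at 15°C in NIL DOG1) and 0.299 (NRT1.8 in N0 in NIL DOG6). Centring the arrays on their medians ended 3 calls, CLCA at 15°C in NIL DOG1 (limma adjusted p = 0.0531) and NRT1.8 in N0 in NIL DOG6 (0.0546) and NIL DOG1 (0.118). It added 1, NRT1.7 in N0 in NIL DOG6 (0.0338). Trended and robust shrinkage ended 0 of the 16 and added 4. These were NRT1.8 at 15°C and in N0 in NIL DOG3, and in NIL DOG6 NRT1.7 in N0 and NRT1.8 in LL (limma adjusted p = 0.0276), both lower. With all groups in the fit, 6 of the 16 were kept on leaving out each of the 44 arrays in turn. They were NRT1.1 at 15°C in NIL DOG3 and in N0 in NIL DOG6 and NIL DOG1, NRT2.5 at 15°C and in N0 in NIL DOG6, and NRT1.8 at 15°C in NIL DOG6. A single array ended the calls of NRT1.1 at 15°C in NIL DOG1 (15°C replicate 1, adjusted p = 0.097) and in N0 in NIL DOG3 (N0 replicate 3, 0.063). The same held for NRT2.5 in N0 in NIL DOG1 (N0 replicate 2, adjusted p = 0.071) and in LL in NIL DOG6 (LL replicate 1, 0.064), and for NRT1.8 in N0 in NIL DOG6 (20°C replicate 1, 0.055). The remaining 5 calls depended on more arrays of their own groups. For NRT1.1 at 15°C in NIL DOG6 these were replicates 2 and 3 at either temperature (adjusted p up to 0.192), and for CLCA in NIL DOG1 likewise replicates 2 and 3 at either temperature (up to 0.193). For NRT2.5 in NIL DOG3 they were replicates 1 and 2 at 15°C and 1 and 3 at 20°C (up to 0.118), and in N0 the N0 replicate 3 (0.533) and all 20°C arrays (up to 0.114). NRT1.8 in N0 in NIL DOG1 lost its call without any array of its groups (up to 0.195).

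The test of unequal response between the lines called 0 of the 10 genes for 15°C, N0 and LL (moderated F test in limma). It called 0.0395% of all probe sets for 15°C, 0% for N0 and 0.00359% for LL. Without adjustment, 1, 1 and 3 of the genes had a p under 0.05, a threshold at which all probe sets were not counted. The lowest p was that of NRT1.7 at 15°C, 0.0050, with an adjusted p of 0.593. In NIL DOG6 NRT1.7 had 8.05, 8.12 and 8.27 at 15°C and 8.35, 8.42 and 8.51 at 20°C, so that all 15°C arrays were lower (-0.28 ± 0.11, limma adjusted p = 0.101). That adjusted p was 0.048 without N0 replicate 2 of that line and 0.049 without dim probe sets. In NIL DOG3 it had 8.48, 8.23 and 8.35 at 15°C and 8.06, 8.15 and 8.11 at 20°C, so that all 15°C arrays were higher (0.25 ± 0.11, limma adjusted p = 0.188). In NIL DOG1 its 15°C and 20°C arrays overlapped (0.12 ± 0.11, limma adjusted p = 0.623). In N0, NIL DOG6 had 8.20, 7.75 and 8.27, also all below its 20°C arrays (-0.35 ± 0.11, limma adjusted p = 0.059). Without NIL DOG6 N0 replicate 1 or 3, or NIL DOG1 LL replicate 1, that adjusted p was 0.038, 0.023 or 0.0497. With all arrays kept, it was 0.025 without dim probe sets, 0.029 with trended and robust shrinkage and 0.034 after centring on array medians.

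Between the lines, averaged over conditions, NRT1.1 and NRT2.5 were lowest in NIL DOG1 and NRT2.7 was highest in NIL DOG6. In NIL DOG3 minus NIL DOG1, 2 of the 10 genes were called, both higher, where 11.1% of all probe sets were called. In NIL DOG6 minus NIL DOG1 there were 3, all higher (8.25% of all probe sets), and in NIL DOG6 minus NIL DOG3 there was 1, also higher (9.61%). For every called gene the arrays of the lines overlapped when conditions were pooled. NRT1.7 missed the threshold in NIL DOG3 minus NIL DOG1 (-0.13 ± 0.05, limma adjusted p = 0.094) and NIL DOG6 minus NIL DOG3 (0.14 ± 0.05, 0.092). It was called in both without dim probe sets (0.047 and 0.045) and after centring on array medians (0.037 and 0.033). The same held without N0 replicate 2 of NIL DOG6 (0.042 and 0.011).

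NRT1.1 had a lowest, median and highest log2 signal of 4.44, 5.34 and 6.60 in NIL DOG6 (15 arrays), 4.52, 5.24 and 6.32 in NIL DOG3 (14 arrays) and 4.17, 4.83 and 6.01 in NIL DOG1 (15 arrays). It was higher by 0.37 ± 0.09 in NIL DOG6 (limma adjusted p = 0.0063) and by 0.32 ± 0.10 in NIL DOG3 (adjusted p = 0.022), each against NIL DOG1. The NIL DOG3 call was lost without replicate 3 of NIL DOG3 in N0 (adjusted p = 0.062), and also without the 3 SL arrays numbered 2 (0.058).

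NRT2.5 had 5.07, 6.17 and 7.06 in NIL DOG6, 5.57, 6.00 and 6.86 in NIL DOG3 and 4.73, 5.82 and 6.75 in NIL DOG1. It was higher by 0.30 ± 0.07 in NIL DOG6 (limma adjusted p = 0.0052) and by 0.29 ± 0.08 in NIL DOG3 (adjusted p = 0.0089), each against NIL DOG1. These means cover unequal values. By condition, NIL DOG6 minus NIL DOG1 ran from -0.03 ± 0.16 at 20°C to 0.49 ± 0.16 in SL. NIL DOG3 minus NIL DOG1 ran from 0.04 ± 0.18 in N0 to 0.68 ± 0.16 in LL, with 0.11 ± 0.16 at 20°C. In single conditions, 1 of the 10 genes was called in 1 of 15 line comparisons, namely NRT2.5 in LL between NIL DOG3 and NIL DOG1 (0.68 ± 0.16, limma adjusted p = 0.012), where 3.12% of all probe sets were called.

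NRT2.7 had 9.83, 10.05 and 10.24 in NIL DOG6, 9.52, 9.82 and 9.97 in NIL DOG3 and 9.59, 9.86 and 10.16 in NIL DOG1. The difference was 0.23 ± 0.04, or 1.17-fold, for NIL DOG6 over NIL DOG3 (limma adjusted p = 0.00025), kept without any of the arrays. For NIL DOG6 over NIL DOG1 it was 0.14 ± 0.04, or 1.1-fold (limma adjusted p = 0.034). This NIL DOG1 call was lost after centring on array medians (0.0729) and when NIL DOG3 arrays were left out of the fit (0.0502). It was lost without the 3 SL arrays numbered 2 as well (0.0856). Leaving out any of 13 arrays also ended it, with adjusted p up to 0.069. These were, in NIL DOG6, replicates 1 at 15°C, 3 at 20°C, 1 in N0, 2 and 3 in LL and 3 in SL. In NIL DOG1 they were replicates 1 and 2 at 15°C, 3 at 20°C, 3 in N0, 2 in LL and 1 and 2 in SL.

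**Figure D5:**
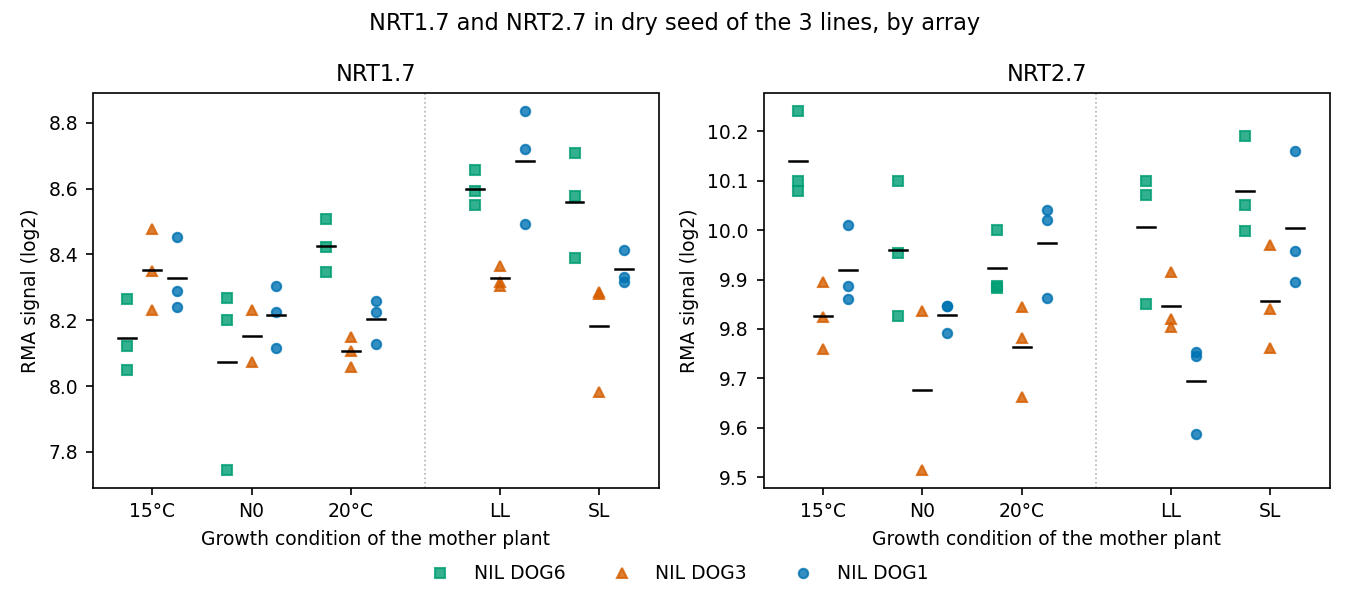
Log2 RMA signal of NRT1.7 and NRT2.7 for each array (point), with the group mean (bar), by growth condition and line. At 15°C, at 20°C and in SL all NRT2.7 points of NIL DOG6 are above all those of NIL DOG3. For NRT1.7 the 15°C points are below the 20°C points in NIL DOG6 and above them in NIL DOG3. Neither of these NRT1.7 differences was called (limma adjusted p = 0.101 and 0.188). Such separations were not counted over all probe sets.

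As near isogenic lines share most of the genome, the 20 measured genes on each side of every member were counted for calls between lines. Over all probe sets the share called was 11.1% in NIL DOG3 minus NIL DOG1, 8.25% in NIL DOG6 minus NIL DOG1 and 9.61% in NIL DOG6 minus NIL DOG3. Around NRT1.1, 7 of 40 neighbours were called in NIL DOG3 minus NIL DOG1 and 5 of 40 in NIL DOG6 minus NIL DOG1. Around NRT2.5 there were 4 and 0, and around NRT2.7 there were 4 of 40 in NIL DOG6 minus NIL DOG3 and 1 in NIL DOG6 minus NIL DOG1. For CLCA 20 of 40 neighbours were called in NIL DOG3 minus NIL DOG1, 16 in NIL DOG6 minus NIL DOG1 and 3 in NIL DOG6 minus NIL DOG3. CLCA itself differed by less than 0.01 between the lines in the mean over conditions. In single conditions its differences between lines reached -0.31 (NIL DOG6 minus NIL DOG3 in LL) and 0.48 (NIL DOG6 minus NIL DOG1 in SL, limma adjusted p = 0.120), none of them called. NRT1.6 and NRT1.5 had 18 and 17 called neighbours in NIL DOG3 minus NIL DOG1 and were not called themselves (limma adjusted p = 0.957 and 0.943). Their called neighbours were 12 and 16 in NIL DOG6 minus NIL DOG3, but 6 and 1 in NIL DOG6 minus NIL DOG1. Where lines differ in sequence under a probe, RNA level and probe binding cannot be told apart.

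Of 24 other genes of nitrate transport listed, 23 were measured. At 15°C against 20°C, 2 of them were higher and 1 was lower, in N0 0 were higher and 3 lower, and in LL against SL 0 were called (limma), where 25.3%, 11.9% and 6.36% of all probe sets were called in these 3 comparisons. The anion channel gene SLAH2 fell at 15°C (0.56 ± 0.11, limma adjusted p = 0.00024) and in N0 (1.03 ± 0.12, or 2.04-fold, adjusted p = 6.8e-08). Its relative SLAH3, a nitrate channel of guard cells, was higher at 15°C by 0.51 ± 0.14 (adjusted p = 0.0067), as was AT1G68570 by 0.18 ± 0.06 (adjusted p = 0.031). In N0, NRT1.9, a carrier of the root phloem, fell by 0.32 ± 0.11 (limma adjusted p = 0.047), and WR3, the NRT2 partner protein also named NRT3.1, fell by 0.30 ± 0.07 (adjusted p = 0.0031).

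Of 20 regulators of nitrate transport, 2 were higher and 6 lower at 15°C, 2 higher and 6 lower in N0, and 1 higher and 2 lower in LL, against the same 25.3%, 11.9% and 6.36% of all probe sets. AT2G43500, listed also as NLP8, a nitrate-binding regulator of seed germination, rose at 15°C (0.59 ± 0.06) and in N0 (0.63 ± 0.06) and fell in LL (0.33 ± 0.06), with limma adjusted p-values of 3.5e-10, 6.7e-10 and 0.00028. LBD39, a repressor of nitrate-responsive genes, fell by 0.87 ± 0.12 at 15°C and by 1.23 ± 0.12 in N0 (limma adjusted p = 3.8e-07 and 2.4e-09). CIPK23, the kinase that phosphorylates NRT1.1, fell by 0.32 ± 0.06 at 15°C (limma adjusted p = 3.0e-05) and rose in LL by 0.19 ± 0.06 (adjusted p = 0.036). CBL1, another listed regulator, rose at 15°C by 0.44 ± 0.08 (limma adjusted p = 3.3e-05), a larger change than that of CIPK23. AT1G68670 fell by 0.64 ± 0.10 at 15°C, and AT3G60320 by 0.54 ± 0.08. In N0, AT1G68670 fell by 1.397 ± 0.10 and BT2 by 0.85 ± 0.20, and in LL LBD37 fell by 0.32 ± 0.08 (limma adjusted p = 0.015).

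Of 4 genes of nitrate reduction, 3 were lower at 15°C and the same number in N0, and 1 was lower in LL, with the same shares over all probe sets. NIA1, encoding nitrate reductase, fell by 1.73 ± 0.13 at 15°C and by 1.48 ± 0.14 in N0, and in LL by 0.44 ± 0.13 (limma adjusted p = 3.2e-12, 7.2e-10 and 0.038). NIR1, encoding nitrite reductase, fell by 1.36 ± 0.13 at 15°C and by 1.53 ± 0.14 in N0. UPM1, which makes a precursor of the nitrite reductase cofactor, fell by 1.41 ± 0.10 at 15°C and by 1.42 ± 0.10 in N0. In both conditions these genes were lower where NRT1.1, NRT2.5 and NRT1.8 were higher, with the 20°C arrays shared by both comparisons.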

How the data were processed

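Per the submitters' processing notes the authors used RMA. The deposited values are log2 signals per probe set (27827, named by locus) for 44 arrays, while the version of RMA and the probe annotation were not given in the sources used here, and no genome build was used. The values were used as deposited, and gene symbols came from a RefSeq gene table (TAIR10.1). A linear model with 15 group means was fitted across all probe sets on all arrays (limma 3.58.1 in R 4.3.3, 29 residual degrees of freedom), tests were two-sided, and p-values were adjusted by Benjamini-Hochberg over all probe sets, with calls at adjusted p under 0.05. The code was tested on simulated data. Condition effects are means of the 3 within-line differences, and line effects are means of the 5 within-condition differences. Precision is limited by how many arrays each group has. The members and the gene and marker lists were chosen with earlier results of these data known. From each other list, up to 4 called genes with the largest change per comparison are named. CIPK23 and CBL1 at 15°C are named in addition to these. For likeness, the 3 probe sets of highest Pearson r are named, leaving out 182 probe sets with values identical to another. Of 69 other listed genes, 68 were measured. Alternatives were a replicate block, fewer arrays in the fit, a filter on dim probe sets, other variance shrinkage, centring on array medians, an additive model and leaving out arrays. Scan dates were not used here.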

Additional observations from a re-analysis of the deposited data

How the results depend on the processing

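No called value changed sign under an alternative, while values near 0 without a call could. Of 40 values in the mean comparisons of conditions, calls were kept for 40 with trended and robust shrinkage, 40 after centring on array medians, 39 with the replicate block, 39 in the additive model and 38 when arrays of other groups were left out of the fit. The filter on dim probe sets kept 13914 probe sets and 5 of the members, with 18 of 20 values unchanged in call. Within lines, same-numbered arrays of 2 conditions did not deviate together (median r of 0.036 for 15°C and 20°C, 0.012 for N0 and 20°C, 0.040 for LL and SL). Between lines within a condition, the median r was -0.015 to 0.077 for 15°C, 20°C, N0 and LL and 0.176 for SL, where 6 of 9 pairs were above 0.1 and the arrays numbered 2 of NIL DOG3 and NIL DOG1 had the highest r (0.398). With the replicate block, 1 gene was called in N0 minus 15°C (NRT1.1, at 0.36, missed the threshold with a limma adjusted p of 0.055), and no other count of calls moved by over 1.5 times. With other groups left out of the fit, the counts were 1 for LL minus SL, 1 for N0 minus 15°C, 0 for 15°C in NIL DOG1, 0 for N0 in NIL DOG6, 0 for N0 in NIL DOG3, 1 for N0 in NIL DOG1 and 0 for LL in NIL DOG6, from fits with fewer arrays. Without dim probe sets, they were 1 for 15°C in NIL DOG1, 2 for LL in NIL DOG6 and 2 for NIL DOG6 minus NIL DOG3, with fewer probe sets tested. Smaller moves there were 3 for 15°C, where CLCA was filtered out, and 3 for LL minus SL. At 15°C they were also 3 in NIL DOG3 and 4 in NIL DOG6. Counts that moved by up to 1.5 times are not all listed for the settings. Trended and robust shrinkage gave 2 for LL in NIL DOG6, and array medians gave 1 for 15°C in NIL DOG1 and 2 for NIL DOG6 minus NIL DOG3. The additive model gave 1 for N0 minus 15°C, and leaving out the 3 SL arrays numbered 2 gave 1 for NIL DOG3 minus NIL DOG1. The cause of these moves was not tested. Leaving out each array gave 4 to 4 calls for 15°C, 3 to 3 for N0, 2 to 3 for LL and 0 to 2 for N0 minus 15°C. Within lines the counts at 15°C were 2 to 4 in NIL DOG6, 1 to 2 in NIL DOG3 and 1 to 2 in NIL DOG1. In N0 they were 2 to 4, 0 to 2 and 1 to 3 in the same order of lines, and in LL 0 to 1, 0 to 0 and 0 to 0. They were 1 to 3 for NIL DOG3 minus NIL DOG1, 2 to 3 for NIL DOG6 minus NIL DOG1, 1 to 2 for NIL DOG6 minus NIL DOG3, and 0 for the tests of unequal response. Signal near background limits what the 5 dim probe sets can show.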
